A study of Mus musculus with 160 samples.

Results

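The thymus homing receptors described here are 7 genes, Ccr9, Ccr7, Cxcr4, Selplg, Cd44, S1pr1 and Cd7, of the 23420 genes in the table of the study. They were chosen by name, and all 7 were found. Their values were read in each of 160 single mouse cells. The question was which of these receptors were present at each stage from endothelium to blood progenitor, and which were present in the same cell.

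The cells came from C57BL/6 pluripotent stem cells (labelled ESC/iPSC, and embryonic stem cells in the text of the study) in which doxycycline switches on a Runx1-p2a-Hoxa9 cassette placed in the Rosa26 locus of selected clones. Induced hemogenic endothelial cells (iHECs, called hematopoietic endothelia cells in the labels) were sorted as CD31+ CD41low CD45- c-kit+ CD201high. They were then kept with doxycycline on OP9-DL1, mouse stromal cells made to carry a ligand of Notch, and gave induced hematopoietic progenitor cells (iHPCs). The iHECs numbered 65. The iHPCs numbered 21 on day 14, 18 on day 17 and 56 on day 21, which the labels also call day 3, day 6 and day 10 of the maturation culture. The day-14 and day-17 cells were CD45+ and lineage-negative, and the day-21 cells were Ter119- CD45+ c-kit+ CD127+. All 4 groups carried the cassette and none is an uninduced control. The gate was changed for the day-14 and again for the day-21 sort, so that gate and day cannot be told apart across either step.

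Progenitors leave the blood for the thymus in steps. P-selectin on thymic vessels binds the selectin ligand PSGL-1, encoded by Selplg, and slows the rolling cell. The chemokine receptors CCR9 and CCR7 then respond to CCL25 and to CCL19 and CCL21 made in the thymus, while CXCR4 responds to CXCL12, and CD44 binds hyaluronan in the matrix. S1PR1 senses sphingosine-1-phosphate and is best known for the exit of lymphocytes from thymus and lymph node and for its part in endothelium. CD7 is a surface protein of early T and NK lineage cells and not a homing receptor in the strict sense, and is kept here as a marker of the cells.

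Promoter sequences were at hand for 3 of the 7 members, Ccr9, Cxcr4 and Cd44, and all 3 are shown, to set beside the Gata2 split of the day-21 cells described further on. Each holds the 250 bases before the RefSeq start in GRCm38.p6, on the strand of the gene, which is chr9:123766961-123767210 (plus strand) for Ccr9, chr1:128592300-128592549 (minus strand) for Cxcr4 and chr2:102901666-102901915 (minus strand) for Cd44. Capitals mark GATAA, a form of the site bound by GATA factors, and CACCC, a core bound by KLF factors, on either strand.
Ccr9: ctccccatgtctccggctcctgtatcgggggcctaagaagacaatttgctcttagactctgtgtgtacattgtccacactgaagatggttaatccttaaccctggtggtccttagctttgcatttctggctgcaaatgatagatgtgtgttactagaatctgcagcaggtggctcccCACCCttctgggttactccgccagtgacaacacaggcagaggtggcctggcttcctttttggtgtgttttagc
Cxcr4: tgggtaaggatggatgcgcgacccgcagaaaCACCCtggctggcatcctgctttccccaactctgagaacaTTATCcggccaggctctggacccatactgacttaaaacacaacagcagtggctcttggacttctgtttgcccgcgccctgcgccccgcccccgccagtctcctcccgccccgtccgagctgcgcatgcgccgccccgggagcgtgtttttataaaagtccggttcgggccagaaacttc
Cd44: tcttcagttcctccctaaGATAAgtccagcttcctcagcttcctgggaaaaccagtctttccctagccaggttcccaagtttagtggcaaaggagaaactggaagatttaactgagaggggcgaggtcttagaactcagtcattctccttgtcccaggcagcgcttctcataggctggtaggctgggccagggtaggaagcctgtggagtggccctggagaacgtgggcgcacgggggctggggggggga
The Ccr9 promoter held no GATAA and a CACCC 73 bases before the start. Other forms of the GATA site, such as the GATAG that stands in the Ccr9 sequence, were not searched or marked. The Cxcr4 promoter held a CACCC 219 bases and a GATAA on the opposite strand 179 bases before the start, and the Cd44 promoter held a GATAA 232 bases before it. None held TGTGGT, a core bound by RUNX factors. Of 32851 promoters of this length, 22.6% held GATAA, 52.01% held CACCC and 14.05% held TGTGGT, on either strand, so that these matches are common letters and are given as a description.

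Values were TPM (transcript abundance), which scale each gene by its length and each cell to the same total, so that sequencing depth is unknown. Detection in a cell meant more than 1 TPM. The number of genes detected was the only measure of library complexity, with medians of 8200 at day 14 and 8101 at day 17, against 4926 in iHECs and 6695.5 at day 21. The labels name no culture or animal, so that each group counted as 1 sample, every SD below describes single cells of a group, and no test was run. Intervals of shares are exact Clopper-Pearson 95% intervals and, like the limit of 3 cells given where no cell was above 1 TPM, cover counting error only.

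Among 3983 pairs of cells within groups, 6 pairs of libraries were nearly identical, with a Pearson r of at least 0.95 over 9674 genes. There were 4 such pairs in iHECs (r from 0.963 to 0.991, against at most 0.699 for the others), 1 at day 14 (r = 0.956, against at most 0.935) and 1 at day 17 (r = 0.985, against at most 0.819). Whether these are 1 library deposited again was not tested, since no counts were used. Shares without the second library of each pair are given below where they bear on a result. Of the 95 iHPCs, which were sorted as CD45+, 4 had at most 1 TPM of Ptprc, the gene of CD45, namely 2 at day 14, 1 at day 17 and 1 at day 21. In both of those day-14 cells all 7 members were at most 1 TPM, although 8120 and 8862 genes were detected. Of the iHECs, sorted as CD45-, 64 of 65 had at most 1 TPM of Ptprc, and the mean of 7 endothelial markers on the log2(TPM + 1) scale was 2.14 to 7.98 in them against at most 2.06 in any iHPC.

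Most iHECs held S1pr1 and Cd44, most day-14 cells held Selplg, Cd44 and S1pr1, and most day-17 cells held Cd44, Selplg, Cxcr4, Cd7, Ccr9 and S1pr1. Ordered by median TPM, S1pr1 led in iHECs at 284 TPM, which put it at percentile 93.2 of the 9674 genes that were detected in more than 30 cells. Cd44 followed at 10.8 TPM, and the medians of the other 5 members were 0. Selplg led at day 14 (65.4 TPM, percentile 75.6), and Cd7 (323 TPM, percentile 93.7) led Selplg (229.7 TPM, percentile 90.7) at day 17. At day 21 Selplg (207 TPM, percentile 91.1) was again above Cd7 (160.01 TPM, percentile 88.8). The ranges of Selplg and Cd7 overlapped at both times, as did those of Ccr9, Cd44 and Cxcr4, which ranked next. The median number of members detected per cell was highest at day 17 (5.5 of 7), followed by day 21 (4), day 14 (3) and iHECs (2).

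**Figure D1:**
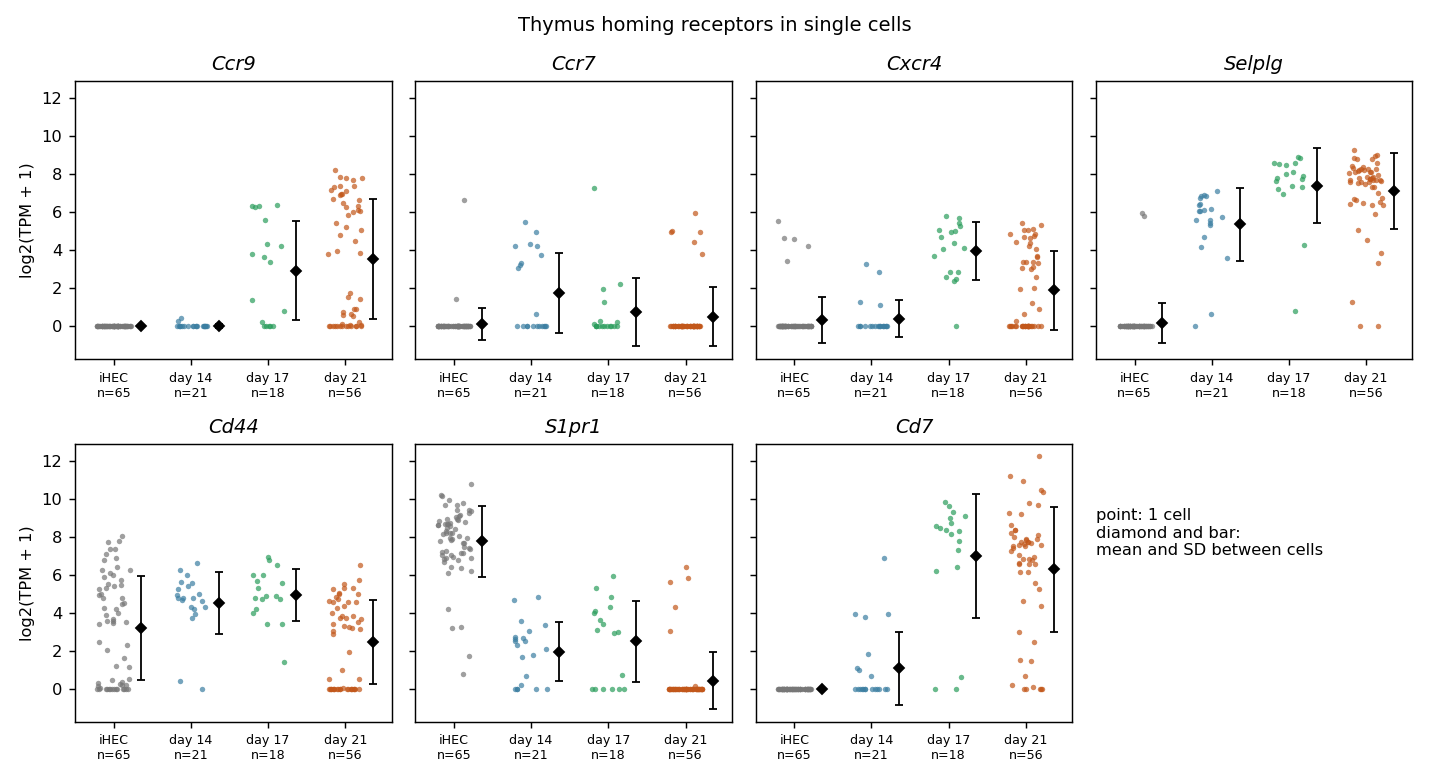
Level of each of the 7 genes on the log2(TPM + 1) scale (vertical axis) in every cell of the 4 groups (horizontal axis). Points are single cells and the diamond and bar are the mean and SD between cells; Ccr9 and Cd7 lie at 0 in all 65 iHECs, while S1pr1 is detected in 64 of them.

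Ccr9, the receptor of the thymic chemokine CCL25, was listed at 0 in all 65 iHECs and reached at most 0.369 TPM in the 21 day-14 iHPCs. The limits that these counts allow were 4.62% and 14.3% of cells. At day 17 Ccr9 ranged from 0 to 83.2 TPM with a median of 10.7 TPM, and was detected in 11 of 18 cells (61.1%, interval 35.7 to 82.7%). At day 21 it ranged from 0 to 302 TPM with a median of 14.1 TPM, and was detected in 33 of 56 cells (58.9%, interval 44.98 to 71.9%). The shares at day 17 and day 21 lay within each other's intervals, and the median of the cells with Ccr9 was 19.1 TPM at day 17 and 80.7 TPM at day 21. Without the second library of the near-identical pair, the day-17 share was 10 of 17 cells (58.8%).

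The annotation places Ccr9 on the plus strand of chromosome 9 (GRCm38, chr9:123678439-123784330). This span begins upstream of the RefSeq start used for the promoter and overlaps 6 genes. Slc6a20a, Lztfl1 and Gm10052, on the other strand, have values in the study. Gm17200 and Gm17020 on the same strand and AC165425.1 on the other strand have none. Whether reads were counted by strand is not given in the sources used here, so that the level of Ccr9 is uncertain to that extent. Slc6a20a was listed at 0 in all 160 cells. Lztfl1 was detected in 22 of 65 iHECs and, at days 14, 17 and 21, in 14 of 21, 15 of 18 and 44 of 56 cells. The processed pseudogene Gm10052 was detected in 49, 20, 18 and 51 cells of the same groups. The median of Lztfl1 was 0 TPM in iHECs and 2.60, 17.9 and 20.9 TPM at days 14, 17 and 21. The part of the overlapping genes in the values of Ccr9 was not tested. Cd44 and Cd7 also overlap a gene on the other strand, Gm23731 and Gm11775, which are not among the 23420 genes.

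Ccr7, the receptor of CCL19 and CCL21 (chr11:99144196-99155077, minus strand), was the sparsest member and the only 1 of the 7 that was not detected in more than 30 cells. Of 65 iHECs 2 had Ccr7 (highest 101 TPM). Day 14 had it in 9 of 21 cells (42.9%, interval 21.8 to 66.0%, highest 43.8 TPM), day 17 in 4 of 18 cells (22.2%, interval 6.41 to 47.6%, highest 155 TPM) and day 21 in 6 of 56 cells (10.7%, interval 4.03 to 21.9%, highest 61.5 TPM). Its median was 0 in every group. Ccr7 was thus most frequent at day 14, before Ccr9 was detected. Only 2 day-17 cells and 4 day-21 cells had both Ccr9 and Ccr7.

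Cxcr4, the receptor of CXCL12 (chr1:128588199-128592293, minus strand), was rare in iHECs, with 5 of 65 cells (7.69%, interval 2.54 to 17.05%), and at day 14, with 4 of 21 cells (19.05%, interval 5.45 to 41.9%), both with medians of 0 and highest values of 45.2 and 8.92 TPM. At day 17 it was detected in 17 of 18 cells (94.4%, interval 72.7 to 99.9%), at 0 to 56.01 TPM with a median of 18.4 TPM. At day 21 it was detected in 27 of 56 cells (48.2%, interval 34.7 to 61.97%), at 0 to 42.8 TPM with a median of 0.707 TPM. Day 17 therefore stood above both neighboring stages in share, and the cells of all groups overlapped in level.

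Selplg, the gene of PSGL-1 (chr5:113818536-113832644, minus strand), was detected in 2 of 65 iHECs, at 55.8 and 61.9 TPM, and in nearly all iHPCs. At day 14 Selplg was detected in 19 of 21 cells (0 to 136 TPM, median 65.4 TPM), at day 17 in 17 of 18 cells (0.736 to 485 TPM, median 229.7 TPM) and at day 21 in 54 of 56 cells (0 to 620 TPM, median 207 TPM). The shares were 90.5% (interval 69.6 to 98.8%), 94.4% (72.7 to 99.9%) and 96.4% (87.7 to 99.6%), whose intervals overlapped. The level was lower at day 14 than later, with the upper quartile of day 14 at 86.6 TPM and the lower quartile of day 17 at 163 TPM. Without the 4 iHPCs low in Ptprc, Selplg was detected in all 19 cells left at day 14 and all 17 left at day 17.

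Cd44, the hyaluronan receptor (chr2:102811141-102901665, minus strand), was detected in 42 of 65 iHECs (64.6%, interval 51.8 to 76.1%), at 0 to 268 TPM with a median of 10.8 TPM. At day 14 it was detected in 19 of 21 cells (0 to 98.2 TPM, median 26.6 TPM) and at day 17 in 18 of 18 cells (1.73 to 125 TPM, median 28.8 TPM). At day 21 it was detected in 33 of 56 cells (58.9%, interval 44.98 to 71.9%), at 0 to 90.8 TPM with a median of 8.09 TPM. In iHECs the cells with Cd44 also had more genes detected, with a median of 5729.5 genes against 4068 in the 23 cells without it, and the part of library complexity in its share was not tested.

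S1pr1, the receptor of sphingosine-1-phosphate (chr3:115710433-115715072, minus strand), ran the other way. It was detected in 64 of 65 iHECs (98.5%, interval 91.7 to 99.96%), at 0.755 to 1779 TPM with a median of 284 TPM. Among iHPCs it was detected at day 14 in 14 of 21 cells (0 to 27.8 TPM, median 3.98 TPM), at day 17 in 11 of 18 cells (0 to 61.7 TPM, median 7.29 TPM) and at day 21 in 5 of 56 cells (8.93%, interval 2.96 to 19.6%, highest 83.9 TPM). The ranges overlapped, although the lower quartile of iHECs, 134 TPM, was above the highest iHPC. The iHEC with the lowest S1pr1 was 1 of the 2 iHECs with Selplg, and the other had 17.9 TPM of S1pr1.

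Cd7 (chr11:121036747-121039418, minus strand) was listed at 0 in all 65 iHECs, a limit of 4.62% of cells. A few day-14 cells, 6 of 21, had it (28.6%, interval 11.3 to 52.2%, highest 119.9 TPM), of which 1 was above 100 TPM. At day 17 it was detected in 15 of 18 cells (83.3%, interval 58.6 to 96.4%), at 0 to 916 TPM with a median of 323 TPM. At day 21 it was detected in 48 of 56 cells (85.7%, interval 73.8 to 93.6%), at 0 to 4834.5 TPM with a median of 160.01 TPM. The 3 day-17 cells without Cd7 had at most 0.175 TPM of Ccr9. Over all 18 day-17 cells the mean of 8 myeloid markers on the log2(TPM + 1) scale reached 5.68, with a median of 0.62. It was 0.08 in 1 of the 3 cells without Cd7, the day-17 cell low in Ptprc. The relation of these markers to Cd7 was not tested.

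**Figure D2:**
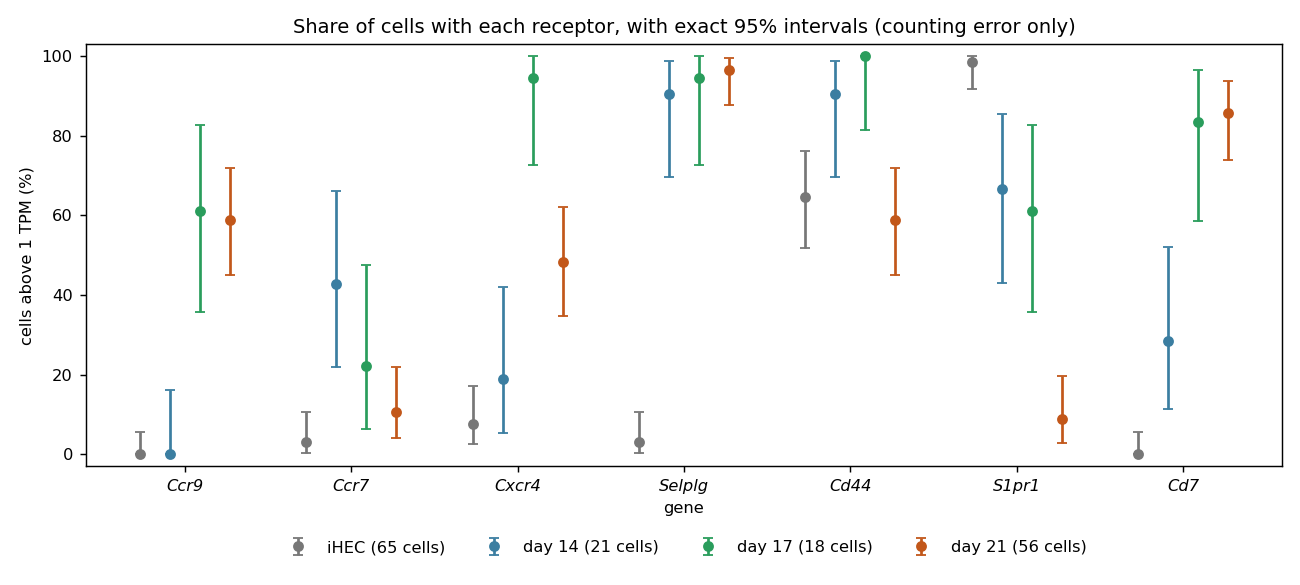
Percentage of cells above 1 TPM (vertical axis) for each gene (horizontal axis), by group, with exact Clopper-Pearson 95% intervals that cover counting error only. Ccr9, Cxcr4 and Cd7 are frequent from day 17, Selplg from day 14, and S1pr1 falls from 98.5% of iHECs to 8.93% of day-21 cells.

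Differences between groups were taken between means of log2(TPM + 1), later minus earlier, and then with the median over the 9674 genes taken off, because that median was 0.93 in the step to day 14, 0.28 in the step to day 17 and -0.74 in the step to day 21. A gene was called higher or lower where the result, its relative difference, was at least 1 in size. Ccr7 is given beside the others, but stood outside the 9674 genes and outside the counts. Ccr9, above 1 TPM in 0 iHECs and 0 day-14 cells, entered through the later groups in which it was high, and Cxcr4 did so in large part. S1pr1, above 1 TPM in 64 iHECs and in 14, 11 and 5 cells at days 14, 17 and 21, entered only through the iHECs, in which it was high. Counts of members called are thus shaped in part by the filter and are a description.

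From iHEC to day 14, 1 member was called higher and 1 lower, where 27.3% and 24.4% of all genes were called, so that the count was not far from the background while the sizes stood near the ends. Selplg went from 0.18 ± 1.03 to 5.37 ± 1.90 (SD between 65 and 21 cells), a relative difference of 4.26, and 95 of the other genes had a larger one. S1pr1 went from 7.78 ± 1.86 to 1.98 ± 1.55, a relative difference of -6.72, and 42 genes had a lower one. Those of Cd44 and Cd7 were 0.41 and 0.18, and that of Ccr7 was 0.72. The values of Ccr9 and Cxcr4, -0.89 and -0.86, reflect the shift of the median gene, since their own means moved by 0.04 and 0.06.

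From day 14 to day 17, 4 of the 6 members that entered were called higher and 0 lower, where 9.03% of all genes were called higher and 7.09% lower. Cd7 went from 1.11 ± 1.92 to 6.99 ± 3.27 (SD between 21 and 18 cells), a relative difference of 5.61 that 11 genes exceeded. Cxcr4 went from 0.41 ± 0.96 to 3.98 ± 1.52, a relative difference of 3.29 that 51 genes exceeded. Ccr9 went from 0.04 ± 0.12 to 2.94 ± 2.61 (2.63, exceeded by 99 genes) and Selplg from 5.37 ± 1.90 to 7.40 ± 1.95 (1.76). The relative differences of Cd44 and S1pr1 were 0.15 and 0.27. That of Ccr7, which stood outside the count, was -1.31. It was -0.49 with a pseudocount of 10 and -0.19 with medians over cells, below the limit for a call. Both groups were sorted with the same gate.

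From day 17 to day 21, 1 member was called higher and 3 lower, where 10.3% and 13.1% of all genes were called. Cd44 went from 4.97 ± 1.36 to 2.47 ± 2.21 (SD between 18 and 56 cells), a relative difference of -1.77, and Cxcr4 from 3.98 ± 1.52 to 1.91 ± 2.08 (-1.33). S1pr1 went from 2.52 ± 2.13 to 0.45 ± 1.501 (-1.33). With a pseudocount of 10 these 3 values were -0.95, -0.54 and -0.40, below the limit for a call. Ccr9 went from 2.94 ± 2.61 to 3.57 ± 3.16, a relative difference of 1.37 of which 0.74 is the shift of the median gene. It was 0.82 with a pseudocount of 10 and 0.92 with medians over cells, below the limit for a call. Selplg and Cd7 were lower in mean by 0.29 and 0.70 and higher than the median gene by 0.45 and 0.04, so that their direction depends on that shift. Markers of other cell types differed in this comparison too. Of 8 mast cell markers 5 entered, and all 5 were called higher (list median 7.59). Of 8 innate lymphoid markers 4 entered, and all 4 were called higher (5.32). Mcpt4 and Mcpt1 were above 1 TPM in 0 day-17 cells, Gzmb and Gzma in 1 each and Cpa3 in 11. Only 2 of the 8 mast cell markers were above 1 TPM in any day-17 cell. The genes named here entered only through day 21, so that most of both counts follows largely from the filter. The part of these markers in the receptor values was not tested. The highest Gata2 at day 17 was 6.78 TPM, whereas 22 of the 56 day-21 cells were at or above 31 TPM.

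No member separated groups without overlap in any comparison between stages or between the Gata2 classes described next. Of the 9674 genes, between 0 and 8 did so in either direction.

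**Figure D3:**
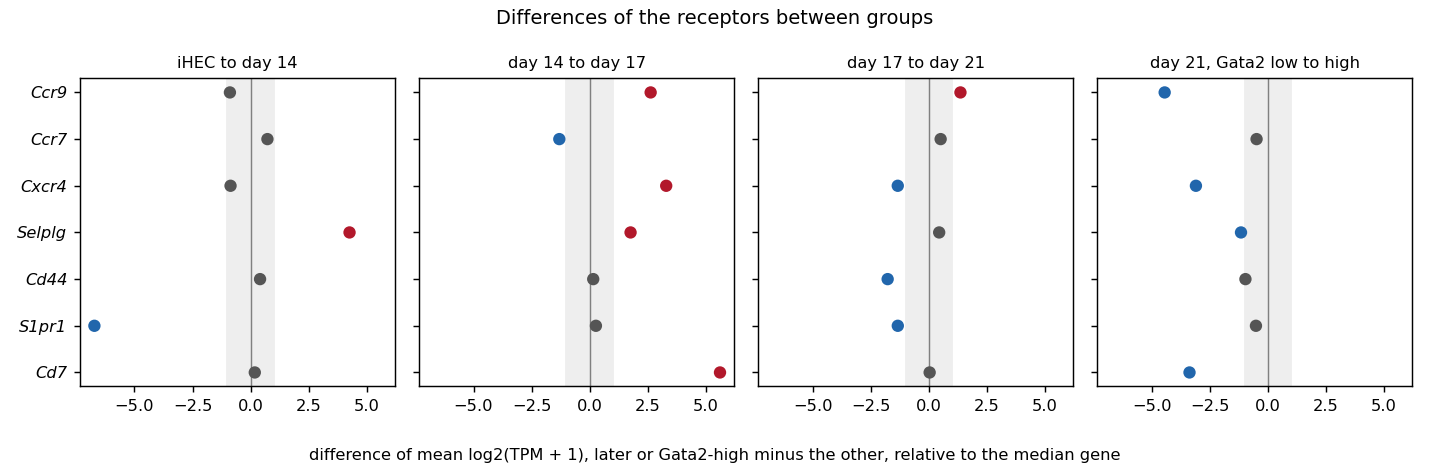
Difference of mean log2(TPM + 1) relative to the median gene (horizontal axis) for each of the 7 genes (vertical axis) in the 4 comparisons. The grey band marks sizes under 1, and red and blue mark values at or beyond it; Ccr7 did not pass the filter on low values and is shown as a value only.

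Within day 21 the cells fell apart by Gata2, a zinc finger factor of progenitors and mast cells. There were 34 cells below 31 TPM of Gata2 and 22 at or above it. The highest cell below had 9.18 TPM and the lowest above had 66.0 TPM, so that 0 cells lay between 10 and 60 TPM. Median genes detected were close, 6769.5 and 6665.5.

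Cxcr4 and Ccr9 were largely confined to the Gata2-low cells. Cxcr4 was detected in 27 of 34 Gata2-low cells (79.4%, interval 62.1 to 91.3%), at 0 to 42.8 TPM with a median of 9.57 TPM, and in 0 of 22 Gata2-high cells, which allows a share of up to 13.6%. The highest Gata2-high cell had 0.553 TPM of Cxcr4. Ccr9 was detected in 29 of 34 Gata2-low cells (85.3%, interval 68.9 to 95.05%), at 0 to 302 TPM with a median of 79.0 TPM, and in 4 of 22 Gata2-high cells (18.2%, interval 5.19 to 40.3%), at 0 to 69.5 TPM. Counted as any value above 0 TPM, Ccr9 was found in 54.5% of the Gata2-high cells, most of them below 1 TPM.

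Selplg was common to both classes. It was detected in 33 of 34 Gata2-low cells (0 to 620 TPM, median 271 TPM) and 21 of 22 Gata2-high cells (0 to 338 TPM, median 119 TPM). Cd7 was detected in 33 of 34 Gata2-low cells (0.17 to 4834.5 TPM, median 207 TPM) and 15 of 22 Gata2-high cells (0 to 2006 TPM, median 21.9 TPM). Cd44 was detected in 23 of 34 (67.6%, interval 49.5 to 82.6%) and 10 of 22 cells (45.5%, interval 24.4 to 67.8%), whose intervals overlapped. Ccr7 was detected in 5 and 1 cells and S1pr1 in 4 and 1 cells, too few to set the classes apart at this number of cells. The ranges of all members overlapped between the classes.

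On the log2 scale, 4 of the 6 members that entered were called lower in Gata2-high cells and 0 higher, where 10.2% of all genes were called lower and 13% higher. The median difference of the 9674 genes was 0 here. Ccr9 and Cxcr4 entered these genes only through the Gata2-low cells, in which they were high, so that the count is a description. Ccr9 went from 5.31 ± 2.63 to 0.87 ± 1.64 (SD between 34 and 22 cells), a difference of -4.44 below which 24 genes lay. Cd7 differed by -3.37 and Cxcr4 by -3.09, and Selplg by -1.15, which was -0.92 without the Gata2-high cell low in Ptprc, -0.95 with a pseudocount of 10 and -0.56 with the split at 1 TPM of Gata2, all below the limit for a call. Cd44 differed by -0.96, S1pr1 by -0.51 and Ccr7 by -0.48.

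Marker genes of mast cells moved with the split. The mean over 8 mast cell markers, on the log2(TPM + 1) scale, was 4.82 to 9.30 in Gata2-high cells (median 8.54) and 1.45 to 4.40 in Gata2-low cells (median 2.84), and did not overlap. Of the 8, 7 and 6 were above 1 TPM in any cell of the class. Cpa3, a mast cell protease gene, was above 1 TPM in all 56 cells, with medians of 10662 TPM and 868 TPM. The mean over 8 T lymphoid markers was 0 to 2.03 in Gata2-high cells (median 0.18) and 0.78 to 6.02 in Gata2-low cells (median 3.05), with 4 and 8 of the markers above 1 TPM in any cell. Innate lymphoid markers overlapped, at 2.84 to 4.89 and 1.24 to 4.66. Although the gate required CD127, its gene Il7r was detected in 8 of 22 Gata2-high cells against 33 of 34 Gata2-low cells, and Flt3, a cytokine receptor of early progenitors, in 2 of 22 against 31 of 34. The part of these markers in the receptor values was not tested. The B lymphoid and stromal marker lists did not exceed a mean of 1.33 and 0.92 in any day-21 cell, and the endothelial and myeloid lists 1.42 and 1.29.

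The 4 Gata2-high cells with Ccr9 were not alike. Day-21 cell 1 had 69.5 TPM of Ccr9 with 90.7 TPM of Gata2, 54.3 TPM of Il7r and the lowest Cpa3 of the 4, 401 TPM. Cell 27 had 13.7 TPM of Ccr9 with 92.9 TPM of Gata2, 15.1 TPM of Flt3 and 691 TPM of Cd3g, a chain of the T cell receptor complex. Cells 11 and 51 had 13.3 and 2.40 TPM of Ccr9 with 12520 and 13777 TPM of Cpa3, and neither Flt3 nor Il7r above 1 TPM. All 4 were at 0 TPM of Cxcr4, while Selplg lay between 59.5 and 205 TPM. Cells 1 and 27 were below 100 TPM of Gata2, and with the split at 100 TPM the difference of Ccr9 was -4.71.

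**Figure D4:**
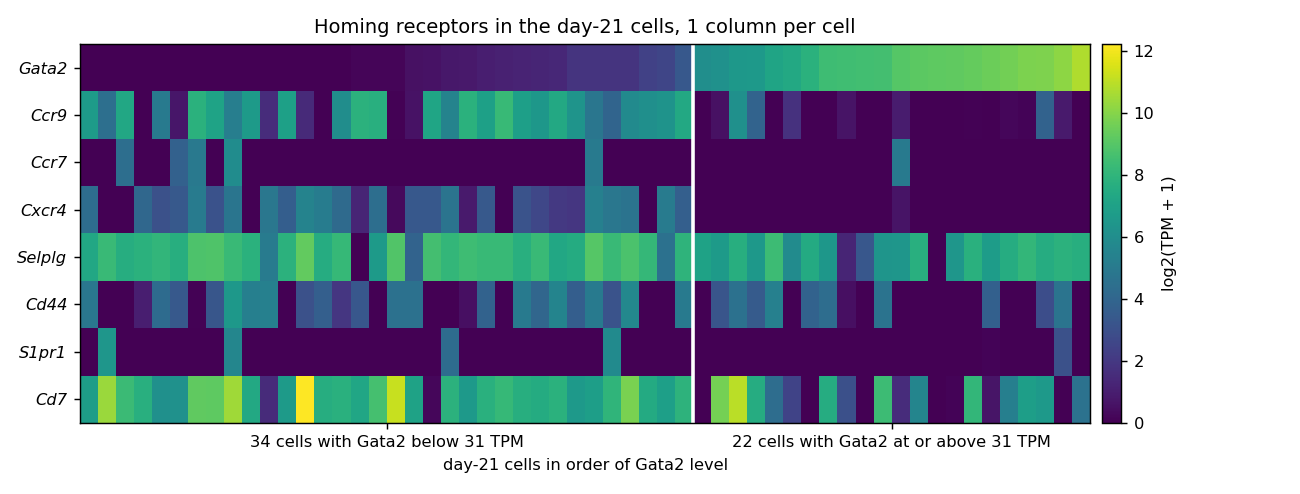
Levels of Gata2 and of the 7 genes (rows) on the log2(TPM + 1) color scale in the 56 day-21 cells (columns), in order of Gata2 with a white line at 31 TPM. Cxcr4 is dark in all 22 cells on the right, Ccr9 is bright in most of the 34 cells on the left, and Selplg is bright across both.

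The receptors of the homing steps were then counted in the same cell. Ccr9, Cxcr4 and Selplg were detected together in 0 of 65 iHECs and 0 of 21 day-14 cells, which allow shares of up to 4.62% and 14.3%. They were together in 11 of 18 day-17 cells (61.1%, interval 35.7 to 82.7%) and 22 of 56 day-21 cells (39.3%, interval 26.5 to 53.2%). All 22 of those day-21 cells were Gata2-low, so that the share was 64.7% of Gata2-low cells (interval 46.5 to 80.3%) and 0 of 22 Gata2-high cells. The day-17 and the Gata2-low day-21 shares lay within each other's intervals. Ccr7 completed the set of 4 in 2 day-17 cells and 3 day-21 cells.

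Of the same 4 genes, iHECs had none in 56 of 65 cells and 1 in the other 9. At day 14, 9 cells had 1, 7 had 2 and 3 had 3 of them, and in each of those last 3 cells the set was Ccr7, Cxcr4 and Selplg. At day 17, 10 of 18 cells had 3 and 2 had 4. Of the Gata2-low cells at day 21, 21 of 34 had 3 and 3 had 4, whereas 16 of the 22 Gata2-high cells had 1, and 5 had 2. Of all 7 members, at least 5 were detected in 0 iHECs, 4 day-14 cells, 14 day-17 cells and 19 day-21 cells, and all 19 of the latter were Gata2-low.

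**Figure D5:**
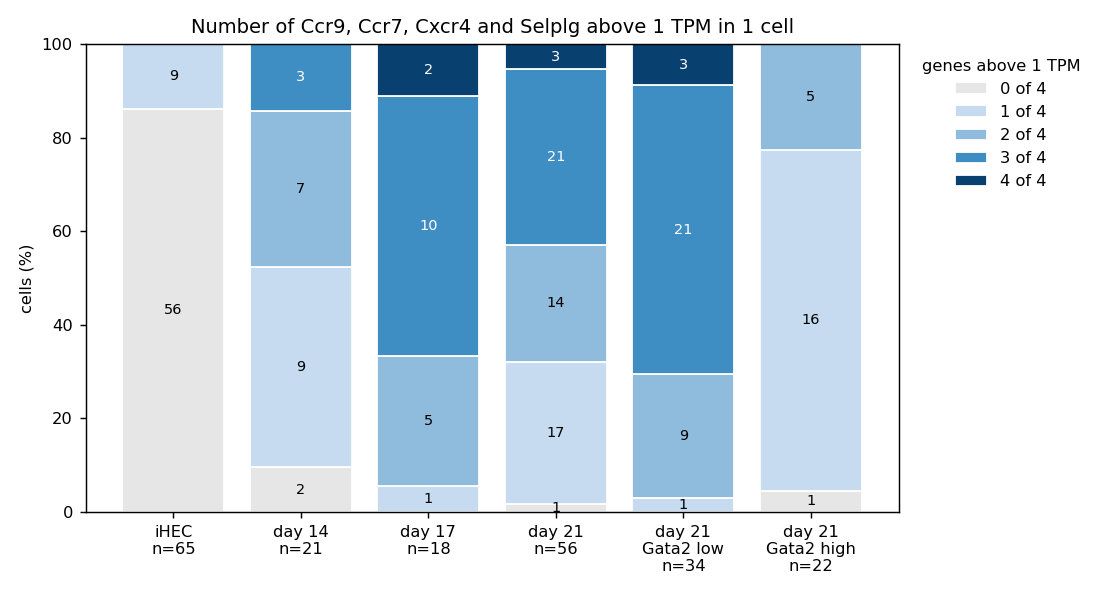
Percentage of cells (vertical axis) by how many of Ccr9, Ccr7, Cxcr4 and Selplg were above 1 TPM in the cell, for the 4 groups and the day-21 classes (horizontal axis), with cell numbers in the bars. Day 17 and Gata2-low day-21 cells mostly hold 3 of the 4 genes, and Gata2-high cells mostly 1.

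Day 17 had the closest overlap. All 11 cells with Ccr9 also had Cxcr4, Selplg, Cd44 and Cd7. Of the 7 cells without Ccr9, 6 had Cxcr4, 6 Selplg, 7 Cd44 and 4 Cd7. Selplg ranged from 218.5 to 485 TPM in the cells with Ccr9 and from 0.736 to 201 TPM in the cells without. The lowest of the latter was the day-17 cell low in Ptprc. How many of all genes have ranges apart between these 11 and 7 cells was not counted, so that the gap is given as a description only. The near-identical pair accounts for 2 of the 11. Cd7 ranged from 157 to 916 TPM with Ccr9 and from 0 to 554 TPM without, which overlapped, as did Cxcr4 (4.28 to 56.01 and 0 to 29.9 TPM). Across the 18 cells the Pearson r of Ccr9 was 0.51 with Selplg, 0.61 with Cxcr4 and 0.58 with Cd7, as a description of cells that share their culture conditions.

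At day 21 the joint presence of Ccr9 and Cxcr4 followed the Gata2 split. Cxcr4 was detected in 23 of 33 cells with Ccr9 and 4 of 23 cells without, but within the Gata2-low cells in 23 of 29 and 4 of 5. The Pearson r of Ccr9 with Cxcr4 was 0.40 over the 56 cells and -0.25 over the 34 Gata2-low cells. Within the Gata2-low cells Cd44 was detected in 21 of the 27 cells with Cxcr4 and 2 of the 7 without, while the Pearson r of their levels was only 0.19. Selplg with Cd7 kept a positive r over the 56 cells and over the 34 Gata2-low cells, at 0.41 and 0.27.

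The genes most like each member over the 56 day-21 cells were ranked by Pearson r among 9277 genes. For Ccr9 they were BC035044 (0.78), Timp2 (0.76) and Flt3 (0.74), and over the 34 Gata2-low cells their values were 0.59, 0.37 and 0.33. For Cxcr4 they were Cd27 (0.72), Lck (0.69) and Myl10 (0.66), and over the Gata2-low cells 0.20, 0.04 and 0.25. For Selplg they were Serinc3 (0.68), Arl4c (0.65) and Sae1 (0.64), and over the Gata2-low cells 0.78, 0.59 and 0.79. For Cd7 they were Lsp1 (0.65), Gtl3 (0.61) and Evl (0.58), and over the Gata2-low cells 0.25, 0.38 and 0.30. Those of Cd44, Rbm45, Rcbtb1 and Hnrnpul1, reached at most 0.47. Those of Ccr7 (Mir704, Kctd1 and Sgol2) and S1pr1 (Sapcd2, Hyls1 and Zmym4) rest on 6 and 5 cells with the member.

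Other chemokine receptors were sparse. Of 19, only Ccrl2, an atypical receptor that binds chemerin, was detected in more than 30 cells, in 13 of 65 iHECs and, at days 14, 17 and 21, in 12 of 21, 12 of 18 and 22 of 56 cells, and it was called in no comparison. Ccr2, a receptor of monocyte chemokines, went from 12 of 21 cells at day 14 to 3 of 18 at day 17, and Cxcr2, a neutrophil receptor, from 11 to 3. Ccr8 and Cx3cr1 were detected in 8 of 22 Gata2-high cells each, against 2 and 1 of 34 Gata2-low cells. Ackr2, listed as Ccbp2, was detected in 15 iHECs and 0 iHPCs. These 5 were chosen after their values were seen.

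Of the ligands of the members, Ccl19, Ccl21a, Sectm1a and Sectm1b were above 1 TPM in 0 of the 160 cells and Cxcl12 in 7. Vcam1, a ligand of integrins kept in the same list, was also above 1 TPM in 0 cells. Ccl25, the ligand of CCR9, was detected in 18 of 65 iHECs and, at days 14, 17 and 21, in 12 of 21, 8 of 18 and 25 of 56 cells. Its relative difference was -1.29 up to day 17 and 1.52 between day 17 and day 21. In the latter step the mean of Ccl25 itself rose by 0.78, so that the call depends on the shift of the median gene. Within day 21 it was detected in 18 of 34 Gata2-low and 7 of 22 Gata2-high cells.

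The lists that follow hold few genes, and their counts are to be read beside the shares of all genes called higher and lower. These were 27.3% and 24.4% for iHEC to day 14, 9.03% and 7.09% up to day 17, 10.3% and 13.1% up to day 21, and 13% and 10.2% for Gata2-high cells. PSGL-1 binds selectins only once sugars and sulfate are added, and 10 of 12 genes of that modification entered. From iHEC to day 14, 2 were called higher and 4 lower (list median -0.34, where all genes have 0), with B4galt1 at -2.60, the sulfotransferase Tpst1 at -2.39 and the sialyltransferase St3gal6 at -2.37. From day 14 to day 17, 2 were called higher and 3 lower, namely St3gal6 (-1.88), the chaperone gene C1galt1c1 (-1.53) and Gcnt1 (-1.47). From day 17 to day 21, 0 were called higher and 1, Tpst1 (-1.03), lower. In Gata2-high cells 5 were called higher and 0 lower (list median 0.66), led by Tpst2 (2.91), C1galt1c1 (2.51) and St3gal4 (1.69). Fut7, the fucosyltransferase of selectin ligands, did not enter, and was detected in 3 of 34 Gata2-low and 14 of 22 Gata2-high cells, a gene named after its values were seen. Selplg itself was lower in the latter.

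Of the mucin-like surface genes, Cd24a was detected in 18 of 65 iHECs and 17 of 21 day-14 cells, with a relative difference of 2.64. At day 21 it was detected in 34 of 34 Gata2-low and 14 of 22 Gata2-high cells, a difference of -4.37. Cd34 was detected in all 160 cells. From iHEC to day 14 its relative difference was -1.66, and that of Podxl, which went from 31 of 65 to 7 of 21 cells, was -2.04. The mean of Cd34 itself moved by -0.73, so that its value depends on the shift of the median gene.

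Integrins carry the firm arrest that follows chemokine signals, and 8 of 9 entered. From iHEC to day 14, 3 were called higher and 4 lower, with Itgb2, the leukocyte beta chain, at 3.63 and Itgb1 at -3.14. From day 14 to day 17, 3 were called higher and 1 lower. Itga4 (7 of 21 to 16 of 18 cells, 3.02) and Itgb7 (2.79) encode the chains of the receptor for MAdCAM-1, and Itgal (1.52) a chain of LFA-1. Calls from day 17 to day 21 were 2 higher and 2 lower, with Itgb1 at -1.38, Itga5 at -1.17 and Itgb7 at 1.16. The mean of Itgb7 itself rose by 0.43, so that its call depends on the shift of the median gene. In Gata2-high cells 2 were called higher, Itgb7 (1.51) and Itga5 (1.33), and 0 lower. Both were thus higher in the class in which Ccr9 and Cxcr4 were lower.

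In the sphingosine-1-phosphate list, 10 of 12 entered. Klf2, a factor known to drive S1pr1, was detected in 57 of 65 iHECs and 11 of 21 day-14 cells (-5.11), and Cd69, whose protein holds S1PR1 inside the cell, in 2 and 18 (3.62). Sphk2, a kinase that makes sphingosine-1-phosphate, was at 2.57. In that comparison 2 of the list were called higher and 3 lower. From day 14 to day 17, 0 were called either way. From day 17 to day 21, 1 was called higher and 3 lower, the latter Sgpl1 (-1.73), S1pr2 (-1.17) and Sphk2 (-1.17). Between the day-21 classes 3 were called higher and 3 lower in Gata2-high cells, among them S1pr2 (1.83), Cd69 (1.37) and S1pr4, a receptor of lymphocytes, detected in 16 of 34 Gata2-low and 0 of 22 Gata2-high cells (-1.80).

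Of the partners of CD44, 6 of 11 entered. Mmp14, a membrane protease that cuts CD44, was detected in 48 of 65 iHECs and 1 of 21 day-14 cells (-6.04), while Ezr, which ties CD44 to actin, was detected in 1 and 21 cells (4.26) and Msn was lower (-2.41). Calls were 3 higher and 3 lower there and 1 and 1 from day 14 to day 17, with Ezr at 1.54 and Hmmr, another hyaluronan receptor, at -1.36. Only Cd74 was called from day 17 to day 21 (2.02). In Gata2-high cells Cd74 (3.04) and Msn (1.44) were called higher and Ezr (-2.16) lower.

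Of 23 signalling genes downstream of these receptors, 22 entered, and from iHEC to day 14 12 were called higher and 4 lower (list median 1.28). They were led by Rac2, the leukocyte Rac GTPase detected in 4 of 65 iHECs and 20 of 21 day-14 cells (6.74), Rgs18 (4.92) and the integrin activator Fermt3 (3.48). From day 14 to day 17, 3 were called higher and 0 lower. These were Rassf5, which links chemokine signals to integrins (3.22), Rgs1, which damps them (1.69), and Dock2, an activator of Rac (1.43). From day 17 to day 21 only Rgs18 was called (1.60), and its own mean rose by 0.86, so that this call depends on the shift of the median gene. In Gata2-high cells 9 were called higher and 0 lower (list median 0.52), led by Plcb2 (3.002), Rgs18 (2.18) and Rgs1 (1.64). The 5 commonly used genes Actb, Gapdh, B2m, Hprt and Tbp had a list median of 0.72 from iHEC to day 14, 0.13 to day 17, 0.66 to day 21 and 0.04 between the classes.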

How the data were processed

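Polyadenylated RNA of 160 sorted single mouse cells was amplified (Discover-sc WTA Kit V2) and made into libraries (TruePrep DNA Library Prep Kit V2). The authors aligned reads to mm10 with HISAT2 2.1.0 and deposited TPM values from StringTie 1.3.4, per the submitters' processing notes and the study's methods, as a table of 23420 genes. TPM sums per cell were 988686 to 999108, and depth per cell is unknown. The annotation used is not given in the sources used here. Positions are from GENCODE vM21 (GRCm38) and promoters from RefSeq (GRCm38.p6), which held 3 of the 7 members.

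TPM were analysed as log2(TPM + 1) in Python 3.11.15 (numpy 2.4.6, pandas 2.3.3, scipy 1.17.1). Genes above 1 TPM in more than 30 cells entered the differences (9674 genes, 6 of the 7 members), and genes above 1 TPM in more than 10 day-21 cells entered the correlations (9277 genes). A fold on this scale understates the change of low genes. All cells were kept, no doublet caller was run, and each group was 1 sample with no test. The members and 18 gene and marker lists were chosen with earlier results of these data known. Named genes were the 7 members, the 3 most correlated with each, and up to 3 per list and comparison by size of relative difference; results for 1 gene of the lists are not reported here. Alternatives were other pseudocounts (0.1 and 10), detection limits (0 and 10 TPM), filters, size factors, medians over cells, Gata2 limits (1 and 100 TPM), and leaving out cells under 4000 genes. Leaving out near-identical libraries or iHPCs low in Ptprc was added after seeing the data. Scripts were tested on simulated data.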

Additional observations from a re-analysis of the deposited data

How the results depend on the processing

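Of 203 differences of members under alternative settings, 187 moved by less than the spread between cells and 0 called values changed sign. Of 272 shares 247 stayed within their interval. The spread between cells is wide, so that a call can be lost within it. S1pr1 from day 17 to day 21, -1.33 and -0.40 with a pseudocount of 10, was among the 187. The uncalled value of Cd7 in that step kept its sign in 3 of 7 alternatives. With a pseudocount of 0.1, the relative differences from iHEC to day 14 were 6.34 for Selplg, -8.69 for S1pr1 and -1.64 for Ccr9, those from day 14 to day 17 were 4.58 for Ccr9 and 5.73 for Cxcr4, and Cxcr4 between the Gata2 classes was -5.66. With a pseudocount of 10 they were 2.26, -4.29 and -0.20, then 1.22 for Cxcr4, and -1.06 between the classes. Ccr9 from iHEC to day 14, at 0 in nearly all cells of both groups, moved with the median gene, to -0.81 with size factors, -0.79 without cells under 4000 genes and -1.08 with medians over cells, as did Ccr7 (-1.08). Splitting at 1 TPM of Gata2 gave -1.97 for Ccr9, 586 genes called lower and 29.4% of Gata2-high cells with Ccr9, Cxcr4 and Selplg together. Above 10 TPM these were together in 21.4% of day-21 and 35.3% of Gata2-low cells. Genes called higher and lower, with a pseudocount of 0.1, were 1538 and 1331 (day 14 to 17), 1961 and 2209 (day 17 to 21) and 2065 and 1671 (Gata2 classes). With 10 they were 1539 and 1068 (iHEC to day 14), 256 and 144, 227 and 355, and 410 and 327. With no filter they were 4827 and 1257 (iHEC to day 14), 1641 higher (day 14 to 17), and 273 and 3923 (day 17 to 21). Requiring more than 80 cells gave 1710 higher (iHEC to day 14), 470 and 349 (day 14 to 17), 733 lower (day 17 to 21), and 832 and 600 (Gata2 classes), from fewer genes. Other causes were not tested. Unknown depth limits any reading of values near 0. No paired analysis was possible because the numbers in the cell names only count cells within a group and no test was run.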
